A study of Mus musculus with 6 samples.

Results

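The genes described here mark the endothelial cells that line brain vessels and the barrier that these cells form between blood and nervous tissue. They are 10 genes taken by their symbols: the tight junction genes Cldn5, Ocln and Tjp1, the endothelial adhesion genes Pecam1 and Cdh5, the barrier transport genes Abcb1a, Mfsd2a and Slc2a1, and the VEGF receptor genes Flt1 and Kdr. Each of the 10 had its own row among the 16060 rows of the deposited expression table. Each also passed a filter on low values, an RPKM (reads per kilobase of transcript, scaled to the size of the library) of at least 0.5 in at least 3 libraries, which left 13321 genes.

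Brain endothelial cells are sealed to each other by tight junctions, in which claudins and occludin span the membrane and the scaffold protein ZO-1 ties them to the actin skeleton. With little passage between the cells, what reaches the brain depends on carriers and efflux pumps in the endothelial membranes and on a low rate of vesicle transport. Pericytes, astrocyte endfeet and Wnt signals from neural cells help to keep this state, while VEGF signalling through its receptors drives vessel growth and permeability.

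The study examined the hippocampus of mice treated repeatedly with methamphetamine (MA), a psychostimulant, to learn which genes change in an anxiety-like state. Adult male C57BL/6 mice received MA into the peritoneum in escalating doses of 5, 10 and 15 mg/kg in weeks 1, 2 and 3, and the Control mice received saline by the same route. Behavior was tested on day 22 and the animals were killed directly afterwards. RNA sequencing gave 3 Control and 3 MA libraries, each labelled as from a mouse. The deposited values were read as log2(RPKM + 1), the scale of every difference given here unless RPKM is named, and the depth of the libraries is unknown.

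Before the results, 2 features of the libraries have to be given, since every direction rests on them. Immediate early genes, which neurons transcribe rapidly after activity, were lower in the libraries labelled MA for 9 of 9 genes on the list, and 6 of them passed an adjusted p of 0.05 in limma. Egr2, on the list, was below an RPKM of 0.5 in every MA library and passed the filter only through the Control libraries. Fos was at 4.30, 3.78 and 3.89 in the libraries labelled Control and at 2.69, 2.22 and 2.22 in those labelled MA, a difference of -1.61 (limma adjusted p = 0.032). Psychostimulants are known to raise these genes acutely, whereas the mice here were dosed repeatedly over weeks. For those of them that the study names, its own account gives the opposite direction to the labelled columns. The Control and MA labels of the columns may therefore be exchanged, which the table alone does not settle, and every direction given here would then be turned. Groups are called by their labels throughout.

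The library labelled MA replicate 3 stood apart from the others. In it, 2124 of the 13321 tested genes lay more than 0.5 from the mean of the other MA libraries, against 902 in MA replicate 1, 570 in MA replicate 2 and 267 to 494 in the Control libraries. Of the 2124 genes, 1086 were lower and 1038 higher in it. Its gaps ran with transcript length. Measured against the other MA libraries, its median gap was 0.18 over the 3326 genes with the shortest exonic length and -0.17 over the 3326 with the longest. For 9 of the 10 members, MA replicate 3 was the lowest of the MA libraries, where the share over all tested genes was 42.4%, and for 6 of them it was the lowest of all 6 libraries. Cldn5, the shortest member at 1416 exonic bases, was the exception. Mfsd2a at 2250 bases, also in the shortest group, went against the trend with length at a gap of -0.62. RNA quality per library was not analysed here and its part in the results was not tested. The differences of the members and the medians of the pathway lists are therefore given with and without MA replicate 3.

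No member passed an adjusted p of 0.05 between the groups, where 0.263% of all tested genes did (35 genes by limma, 22 higher and 13 lower in MA). At an unadjusted p under 0.05 there was 1 member, Cldn5, higher in MA, beside 4.99% of tested genes higher and 5.46% lower at that level. Cldn5 was also the 1 member with every MA library above every Control library, an order found in 7.32% of tested genes, and no member had the opposite order, found in 10.2%. The median difference of the members was 0.12, against -0.01 over all tested genes. Without MA replicate 3 the median was 0.27, with all 10 members higher in MA. It was -0.0060 without MA replicate 1 and 0.035 without MA replicate 2, with 5 of the 10 higher in each case. With MA replicate 3 left out, both MA replicates 1 and 2 were in 8 of the 10 above every Control library, which held for 20.8% of tested genes. Higher in MA at an unadjusted p under 0.05 were 5 members (Cldn5, Pecam1, Abcb1a, Mfsd2a and Flt1) against 11.9% of tested genes. The single member with an adjusted p under 0.05 was Mfsd2a, where 1.93% of tested genes passed. Leaving MA replicate 3 out thus raised calls over the whole table, from 35 to 257 genes. The table-wide count was 15 without MA replicate 1, 3 without Control replicate 1 and 0 without each of the remaining libraries.

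**Figure D1:**
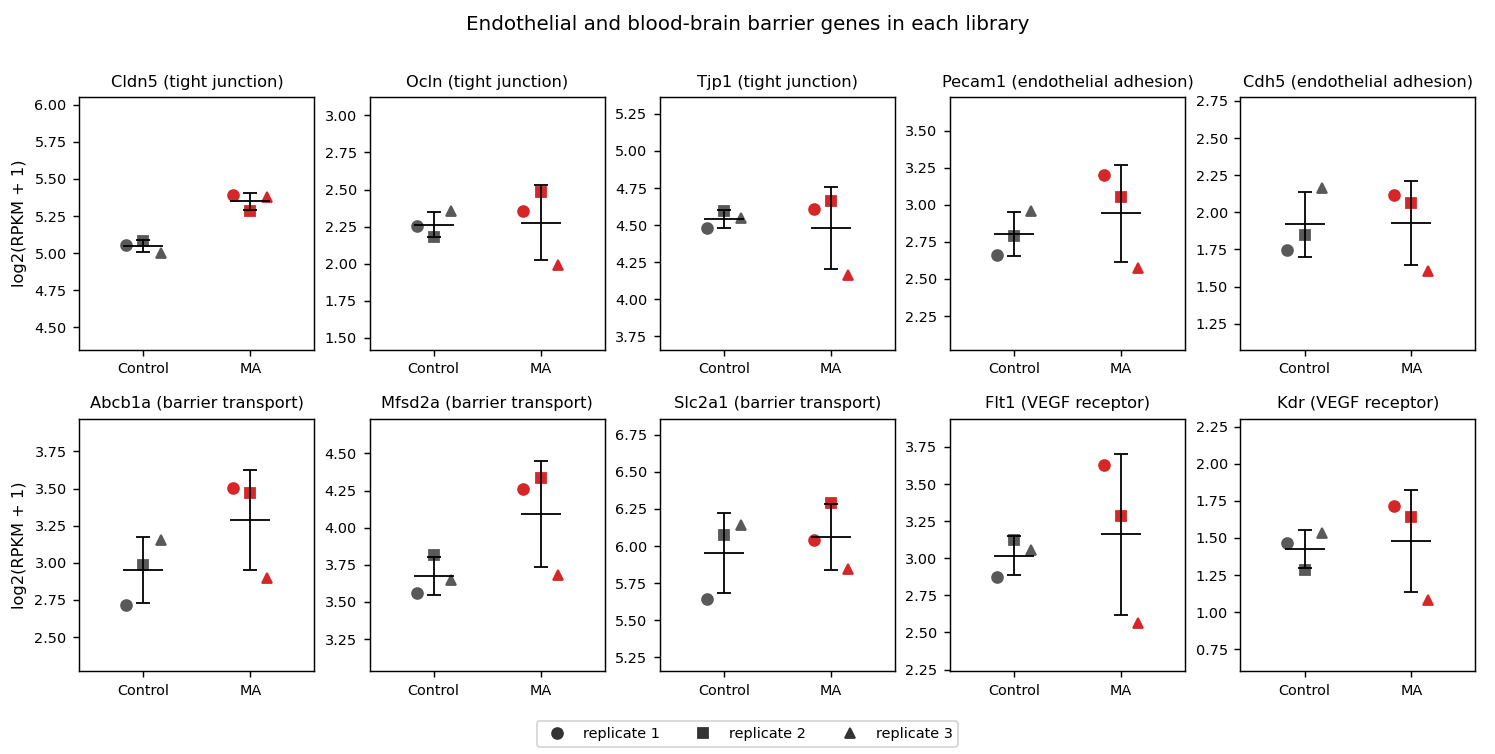
Levels of the 10 genes in each library, on the log2(RPKM + 1) scale, with the same span on every vertical axis. Each symbol is 1 library, and lines and bars are the group mean and SD (n = 3). Only for Cldn5 do all MA libraries lie above all Control libraries, and in the other 9 panels the MA triangle (replicate 3) is the lowest MA point.

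Of the tight junction genes, Cldn5 was higher in MA without overlap of the groups, and Ocln and Tjp1 were not distinguishable between them. Cldn5 (ENSMUSG00000041378) encodes claudin-5, the main claudin of brain endothelium. Its values were 5.05, 5.08 and 5.003 in Control and 5.39, 5.29 and 5.38 in MA. Every MA library was above every Control library, and the gap between the groups was wider than the spread within either, with MA replicate 3 in the middle of its group. The difference was 0.30 (SE 0.08, 95% interval 0.13 to 0.48), or a mean RPKM of 39.8 against 32.1, with a limma adjusted p of 0.24. An exact two-sided permutation test gave p = 0.1, the smallest that 3 against 3 libraries allows. Without MA replicate 3 the difference was 0.29 (limma adjusted p = 0.081). In bulk tissue, fewer or more endothelial cells and less or more RNA per cell cannot be told apart.

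Ocln (ENSMUSG00000021638) encodes occludin, a junction protein with 4 membrane passes that epithelia also make. It was at 2.26, 2.18 and 2.35 in Control and at 2.35, 2.48 and 1.99 in MA. The Control values lay inside the MA range, since MA replicate 3 was the lowest library and MA replicate 2 the highest. Its difference was 0.01 (95% interval -0.32 to 0.35) with all libraries and 0.16 without MA replicate 3, with limma adjusted p of 0.98 and 0.39. The sign turned on leaving out Control replicate 2 (-0.026), MA replicate 1 (-0.024) or MA replicate 2 (-0.089).

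Tjp1 (ENSMUSG00000030516) encodes ZO-1, the scaffold below the junction strands, and is expressed in many cell types besides endothelium. The Control libraries were at 4.48, 4.60 and 4.55 and the MA libraries at 4.61, 4.66 and 4.16. MA replicates 1 and 2 were barely above the Control range and MA replicate 3 was well below it, so the sign of the difference depended on that library. It was -0.06 (95% interval -0.39 to 0.26) with all libraries and 0.10 without MA replicate 3, with limma adjusted p of 0.92 and 0.46.

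The endothelial adhesion genes had groups that overlapped when all libraries were used. Pecam1 (ENSMUSG00000020717) encodes CD31, an adhesion molecule at endothelial cell contacts that platelets and leukocytes carry too. It had values of 2.66, 2.79 and 2.96 in Control and 3.20, 3.05 and 2.58 in MA. MA replicates 1 and 2 were the highest of the 6 libraries and MA replicate 3 the lowest. The difference was 0.14 (95% interval -0.27 to 0.55, limma adjusted p = 0.84), and without MA replicate 3 it was 0.32 (limma adjusted p = 0.16). Without MA replicate 1 it was 0.012.

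Cdh5 (ENSMUSG00000031871) encodes VE-cadherin, the endothelial cadherin of adherens junctions. Levels of 1.74, 1.85 and 2.16 in Control stood beside 2.12, 2.06 and 1.61 in MA. Here Control replicate 3 was the highest library, above both MA replicates 1 and 2, so the groups overlapped with or without MA replicate 3. The difference was 0.01 (95% interval -0.40 to 0.42, limma adjusted p = 0.99) and 0.17 without that library (limma adjusted p = 0.51). It was negative when Control replicate 1 (-0.077), Control replicate 2 (-0.025), MA replicate 1 (-0.084) or MA replicate 2 (-0.058) was left out.

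With all libraries used, the barrier transport genes Mfsd2a and Abcb1a had the largest differences among the members. Both were carried by MA replicates 1 and 2. Without MA replicate 2 they differed by 0.29 and 0.25, less than Cldn5 at 0.34. Mfsd2a (ENSMUSG00000028655) encodes a carrier of lysophospholipids with docosahexaenoic acid, and it is known to hold down vesicle transport across brain endothelium. Its Control values were 3.56, 3.82 and 3.64 and its MA values 4.26, 4.34 and 3.68. MA replicates 1 and 2 were clearly above all Control libraries, while MA replicate 3 lay within the Control range. The difference of 0.42 (SE 0.18, 95% interval -0.001 to 0.83) had a limma adjusted p of 0.48 and an exact permutation p of 0.2. Without MA replicate 3 it was 0.62 (limma adjusted p = 0.039).

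Abcb1a (ENSMUSG00000040584) encodes the P-glycoprotein efflux pump of mouse brain capillaries, which returns many drugs to the blood. It measured 2.71, 2.98 and 3.15 in Control and 3.50, 3.47 and 2.90 in MA. MA replicates 1 and 2 were again the highest, and MA replicate 3 lay among the Control libraries. The difference was 0.34 (SE 0.19, 95% interval -0.11 to 0.78, limma adjusted p = 0.60), and 0.53 without MA replicate 3 (limma adjusted p = 0.090).

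Abcb1b, the near copy of Abcb1a in rodents, was lower in level and differed by -0.006 (limma adjusted p = 0.99). Its values were 0.79, 1.40 and 1.27 in Control and 1.15, 1.27 and 1.03 in MA, so that the MA libraries all lay within the Control range. In GENCODE M21 the coding sequences of both genes have 3828 bases and are identical at 87.9% of aligned positions. Of the 50-base windows of Abcb1a, 20.3% occur unchanged in Abcb1b, and reads from such windows could have been given to either gene. Both levels are uncertain for that reason, and how much of the lower level of Abcb1b this concerns was not measured. The longest shared run has 338 bases, of which the first 120 are shown, coding positions 1357 to 1476 of Abcb1a, to make the likeness visible:
Abcb1a and Abcb1b: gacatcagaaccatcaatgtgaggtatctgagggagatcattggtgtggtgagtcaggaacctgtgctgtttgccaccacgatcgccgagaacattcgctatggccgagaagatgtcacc

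Slc2a1 (ENSMUSG00000028645) encodes GLUT1, the glucose carrier of the barrier, which astrocytes and choroid plexus epithelium also express. Its libraries were at 5.65, 6.07 and 6.14 in Control and at 6.04, 6.29 and 5.85 in MA. Control replicate 1 was the lowest of the 6 and MA replicate 2 the highest, with the others mixed. The difference was 0.11 (95% interval -0.27 to 0.49, limma adjusted p = 0.88), and it was 0.21 without MA replicate 3 (limma adjusted p = 0.47), -0.05 without Control replicate 1 and -0.0088 without MA replicate 2. In the same annotation, exons of Slc2a1 and of Abcb1a overlap short genes on the other strand (Gm12868 and Gm42686). Whether strand was used in counting is not given in the sources used here.

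Of the VEGF receptor genes, Flt1 had the widest spread within MA of all members and Kdr the lowest level, and neither differed between the groups beyond that spread. Flt1 (ENSMUSG00000029648) encodes VEGFR1, which binds VEGF tightly and signals weakly. Its values of 2.87, 3.13 and 3.06 in Control compared with 3.63, 3.29 and 2.57 in MA. MA replicate 1 was the highest library and MA replicate 3 the lowest, a range within MA that enclosed all Control values. The difference was 0.14 (95% interval -0.44 to 0.73, limma adjusted p = 0.90), and 0.44 without MA replicate 3 (limma adjusted p = 0.12). Without MA replicate 1 it was -0.09.

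Kdr (ENSMUSG00000062960) encodes VEGFR2, the main signalling receptor for VEGF on endothelium. It was at 1.46, 1.28 and 1.53 in Control and at 1.71, 1.64 and 1.08 in MA. As with Flt1, the MA range enclosed the Control values. The difference was 0.05 (95% interval -0.37 to 0.48, limma adjusted p = 0.95), or 0.25 without MA replicate 3 (limma adjusted p = 0.25). Leaving out MA replicate 1 (-0.063), MA replicate 2 (-0.028) or Control replicate 2 (-0.017) made it negative.

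On the RPKM scale, which is per length and so allows genes to be compared, the mean over the 6 libraries was 64.0 for Slc2a1, 36.0 for Cldn5, 21.9 for Tjp1 and 14.1 for Mfsd2a. These 4 kept that order in each of the 6 libraries. Abcb1a at 7.87 and Flt1 at 7.74 did not differ beyond their spread, the first being higher in 3 of 6 libraries with a mean log2 gap of 0.03 (SD 0.20, n = 6). Flt1 was above Pecam1 (6.41) in 5 of 6 libraries. Ocln (3.85), Cdh5 (2.83) and Kdr (1.77) followed, each below its upper neighbour in 6 of 6 libraries.

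Within the set, 9 members shared a profile over the libraries. Pearson's r of each with the mean of the other 9, after centring, ran from 0.71 for Slc2a1 to 0.97 for Pecam1 over the 6 libraries, but was 0.21 for Cldn5. The 5 genes outside every list with the profile most like the members' mean were Paip2b (r = 0.998), Nxph1 (0.994), Sgms1 (0.993), Gas7 (0.993) and Aplp2 (0.993). Their differences between the groups were 0.13 to 0.22, and each was highest in MA replicate 1 and lowest in MA replicate 3. Sgms1 was at 3.20, 3.34 and 3.54 in Control and at 3.83, 3.77 and 3.15 in MA. Their exonic lengths ran from 4753 to 11342 bases. After each library was corrected for exonic length and GC content, a step chosen after seeing the data, the median difference of the members was 0.12 and Cldn5 was at 0.26, Abcb1a at 0.38, Mfsd2a at 0.40 and Flt1 at 0.17.

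**Figure D2:**
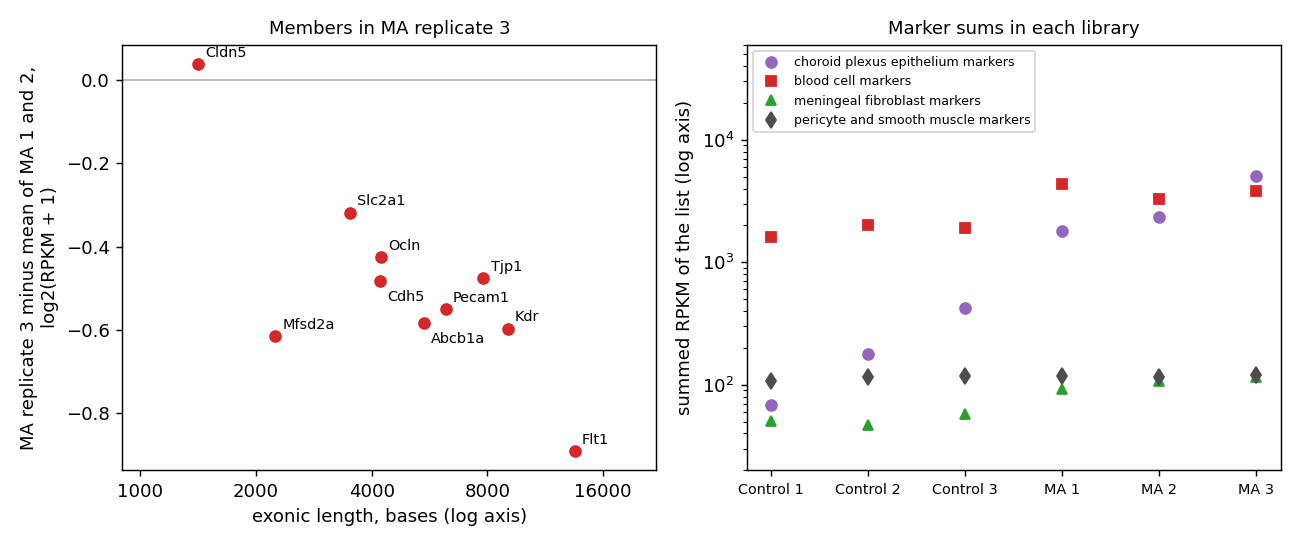
Left, the gap of MA replicate 3 to the mean of MA replicates 1 and 2 for each member (vertical axis, log2(RPKM + 1)) against its exonic length in bases (log axis); Cldn5 lies at 0.04 and Flt1 at -0.89. Right, summed RPKM of 4 marker lists in each library (log axis); the choroid plexus sum is 67.8 to 423.7 in Control and 1789 to 5098 in MA, while the pericyte sum stays between 107 and 121.

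Further endothelial identity genes had values of both signs. Of 26 on the list 25 were tested, 12 with a positive and 13 with a negative difference, none passed the adjusted threshold, 7 had all MA libraries below all Control libraries and 1 had them above, orders found in 10.2% and 7.32% of all tested genes. The median difference was -0.08, and -0.12 without MA replicate 3. Nos3, the endothelial nitric oxide synthase, was at 2.31, 2.22 and 2.31 in Control and 1.83, 1.74 and 1.79 in MA (difference -0.49, limma adjusted p = 0.14, and -0.50 with 0.057 without MA replicate 3). The MA libraries lay close together and well below the Control libraries, MA replicate 3 among them. Icam2, an adhesion molecule of resting endothelium, differed by -0.81 (limma adjusted p = 0.16, and 0.030 without MA replicate 3), and Clec14a, a lectin-like protein of endothelial contacts, by 0.43 (limma adjusted p = 0.22, and 0.086 without MA replicate 3). Clec14a was below an RPKM of 0.5 in every Control library (0.37, 0.46 and 0.46) and passed the filter only through the MA libraries. The list thus held genes of the same cell type with opposite signs, and none with a call when all libraries were used.

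Among the further junction genes 16 of 18 were tested, none was called, and the median difference was -0.01 (0.03 without MA replicate 3). Without overlap 3 were above and 2 below, orders found in 7.32% and 10.2% of all tested genes. Cldn1, a claudin abundant in choroid plexus and leptomeningeal cells, had 0.34, 0.71 and 0.72 in Control and 1.47, 1.61 and 1.79 in MA (difference 1.04, limma adjusted p = 0.057, and 0.041 without MA replicate 3). Every MA library was above the Control range, MA replicate 3 most of all. Cgnl1, which encodes paracingulin, differed by 0.46 (limma adjusted p = 0.26) and Lsr, which encodes angulin-1 of tricellular junctions, by -0.44 (limma adjusted p = 0.35).

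Of the 19 further transport genes 18 had a row and were tested, with 0 called and a median difference of 0.07 (0.12 without MA replicate 3). Without overlap 5 were above and 0 below, where 7.32% and 10.2% of all tested genes were. Slco1a4, an organic anion carrier of barrier endothelium, was at 3.37, 3.66 and 3.79 in Control and 4.85, 4.57 and 3.70 in MA. Its pattern was that of Mfsd2a, with MA replicates 1 and 2 high and MA replicate 3 inside the Control range. The difference was 0.77 (limma adjusted p = 0.41), and 1.10 without MA replicate 3 (limma adjusted p = 0.030). Abcg2, the breast cancer resistance efflux pump, differed by 0.53 and Tfrc, the transferrin receptor, by 0.23, both without overlap (limma adjusted p = 0.44 and 0.46).

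Of the 6 caveola and transcytosis genes, all tested and none called, the median difference was -0.02, and 0.12 without MA replicate 3. Plvap encodes the diaphragm protein of fenestrated endothelium and is low in mature barrier vessels. It was at 1.75, 1.96 and 1.75 in Control and 2.31, 2.20 and 2.98 in MA, above the Control range in every MA library and highest in MA replicate 3 (difference 0.68, limma adjusted p = 0.34, and 0.43 with 0.090 without that library). Cavin3 differed by -0.36 and Cavin2 by 0.15, both with overlap (limma adjusted p = 0.49 and 0.79).

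VEGF ligands and co-receptors had 10 of 12 genes tested, 0 called and a median difference of 0.02 (0.08 without MA replicate 3). Vegfd, a ligand of VEGFR3, differed by 0.81 and Apln, the apelin ligand, by -0.28, both without overlap (limma adjusted p = 0.16 and 0.39, or 0.051 and 0.097 without MA replicate 3). Vegfd was below an RPKM of 0.5 in most Control libraries and passed the filter only through the MA libraries. Vegfa itself was at 4.53, 4.32 and 4.29 in Control and 4.94, 4.65 and 4.35 in MA. MA replicate 3 lay within the Control range and the difference was 0.27 (limma adjusted p = 0.62), or 0.42 without it (limma adjusted p = 0.11).

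The Wnt and Norrin signalling genes, 13 once Gpr124 was counted under its current symbol Adgra2, all tested and 0 called, had a median difference of 0.00 (-0.07 without MA replicate 3) and contained a pair of ligands with opposite signs. Wnt7a was at 2.82, 2.76 and 2.96 in Control and 2.33, 2.52 and 2.37 in MA (difference -0.44, limma adjusted p = 0.22). Wnt7b was at 3.17, 3.46 and 3.48 in Control and 3.79, 3.80 and 3.92 in MA (difference 0.47, limma adjusted p = 0.22). The groups did not overlap for either gene, and MA replicate 3 stayed with its group. Without it they differed by -0.42 and 0.42 (limma adjusted p = 0.089 and 0.098). Reck, a cofactor of this signal, differed by 0.35 (limma adjusted p = 0.46).

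Of the 12 endothelial activation genes 10 had a row and 9 were tested, with 0 called and a median difference of -0.03, or -0.11 without MA replicate 3. Plaur, the urokinase receptor, was lower in all MA libraries (difference -0.96, limma adjusted p = 0.22, and -1.003 with 0.096 without MA replicate 3). It was below an RPKM of 0.5 in every MA library and passed the filter only through the Control libraries. Icam1 and Vcam1, the leukocyte adhesion molecules that inflamed endothelium displays, differed by -0.27 and 0.15 (limma adjusted p = 0.52 and 0.65). The 10 basement membrane genes, all tested and none called, had a median difference of 0.20, or -0.01 without MA replicate 3. Where 7.32% of all tested genes were above the Control range in every MA library, 4 of the 10 were. Among them were the collagen IV genes Col4a1 (0.32) and Col4a2 (0.47) and the laminin gene Lamb2 (0.25), with limma adjusted p of 0.35, 0.38 and 0.44.

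**Figure D3:**
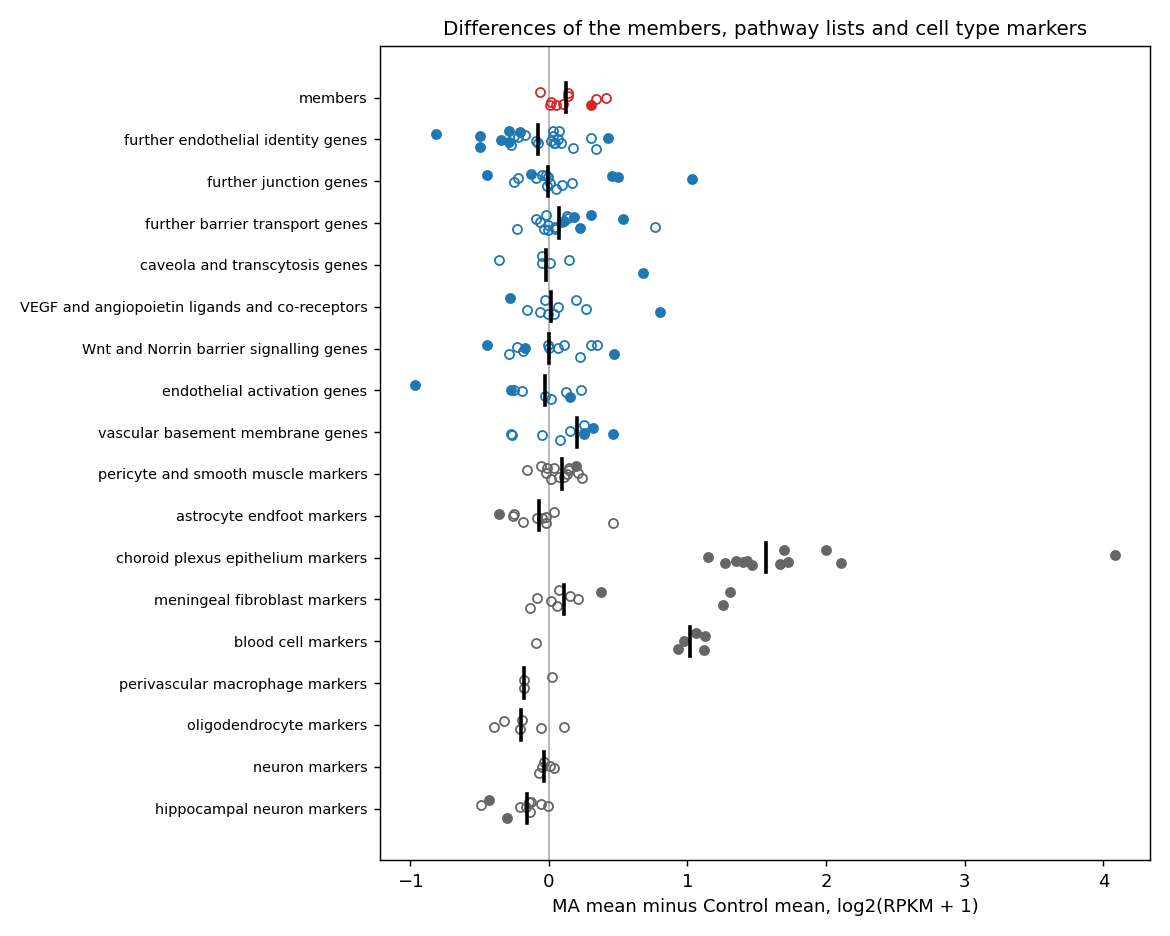
Difference of group means (MA minus Control, log2(RPKM + 1)) for each tested gene of the members (red), the pathway lists (blue) and the cell type marker lists (grey). Filled circles are genes whose groups do not overlap, and black lines are list medians; choroid plexus markers lie between 1.15 and 4.09, while the members lie between -0.06 and 0.42.

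Markers of tissues beside the hippocampus also differed between the groups. All 12 choroid plexus epithelium markers were higher in MA without overlap, an order found in 7.32% of all tested genes. Of them, Prlr, F5 and Slc4a5 were below an RPKM of 0.5 in every Control library, and Aqp1 and Cldn2 in most. These genes passed the filter only through the MA libraries. Beside 0.263% of all tested genes, and 1.93% without MA replicate 3, 6 and 10 of the 12 markers passed the adjusted threshold. Their summed RPKM was 67.8, 177 and 424 in Control and 1789, 2323 and 5098 in MA, most of it from Ttr, the transthyretin gene, at 57.7, 166 and 410 and at 1744, 2254 and 5033. MA replicate 3 held the most and Control replicate 3 the most among Control. Of the genes named from the pathway lists, Cldn1, Plvap, Wnt7b and Col4a2 had their highest value in MA replicate 3. The members other than Cldn5 had their lowest MA value there. MA replicate 3 was above both other MA libraries for 8 of the 12 markers and for 5461 of the 13321 tested genes. None of the 12 markers was at 0 in any library.

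Blood cell markers showed a similar split. Of 10 on the list 7 had a row, and their summed RPKM was 1600, 2024 and 1912 in Control and 4379, 3320 and 3850 in MA, most of it from globin genes, with Hba-a2 the highest in the mean over the 6 libraries and Hbb-bs the highest in 3 of them. The 4 globin genes and Alas2 were above the Control range in every MA library, an order found in 7.32% of all tested genes. Past the adjusted threshold were 3 of them, and 5 without MA replicate 3, beside 0.263% and 1.93% of all tested genes. The leukocyte gene Ptprc differed by -0.09. Meningeal fibroblast markers, 10 of 10 with a row, summed to 50.2, 47.1 and 58.1 in Control and 92.8, 107 and 116 in MA, led by Igf2. Of these, Dcn, Igf2 and Slc6a20a lay above the Control range in every MA library, beside 7.32% of all tested genes. From this list 0 were called, or 2 without MA replicate 3, beside 0.263% and 1.93% of all tested genes. The part of choroid plexus, blood or meningeal tissue in the values of Cldn5, Slc2a1, Cldn1, Plvap and the other genes was not tested.

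Sums of markers of cells next to the endothelium overlapped between the groups. Pericyte and smooth muscle markers, 15 of 15 with a row and led by Vtn, summed to 107, 116 and 119 in Control and 118, 115 and 121 in MA. Of the 14 tested, 10 had a positive and 4 a negative difference, with 0 called. Their median difference was 0.09, and 0.17 without MA replicate 3. Astrocyte endfoot markers, 10 of 10 and led by Slc1a2, summed to 446, 465 and 501 in Control and 521, 568 and 357 in MA, with MA replicate 3 again the lowest library. It was the lowest of the MA libraries for 9 of the 10 genes. Differences were negative for 8 of 10 genes with 0 called, at a median of -0.07 that became 0.04 without MA replicate 3, and the endfoot water channel gene Aqp4 was lower in MA without overlap (-0.36, limma adjusted p = 0.46). The perivascular macrophage markers, 6 of 6 and led by Pf4, summed to 3.87 to 5.78.

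The labelled tissue was checked in the same way. Hippocampal neuron markers, 10 of 10 and led by Neurod6 in the mean over the 6 libraries but by Calb1 or Spink8 in each MA library, summed to 368, 301 and 299 in Control and 281, 310 and 262 in MA. All 10 had a negative difference (median -0.15, and -0.18 without MA replicate 3) and 0 were called. Without that library, Zbtb20 (0.15) and Calb1 (0.34) had a positive difference. In limma 3 of the 10 had an unadjusted p under 0.05, beside 5.46% of tested genes lower at that level. Neurod6 (-0.43) and Wfs1 (-0.30) were lower in MA without overlap, an order found in 10.2% of all tested genes. General neuron markers, 5 of 6 with a row and led by Snap25, summed to 1656, 1599 and 1761 in Control and 1793, 1826 and 1345 in MA, lowest in MA replicate 3. Oligodendrocyte markers, 6 of 6 and led by Mbp, had sums between 2363 and 2939. Mbp differed by 0.11, and the other 5 had a negative difference, with 0 called. The median was -0.20, and -0.33 without MA replicate 3. No gene of these lists was at 0 in any library.

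The promoters of members that shared a profile were compared with those that did not. RefSeq promoters on GRCm38.p6 were found for 8 of the 10 members, and the 250 bases before the transcription start that RefSeq gives were searched on both strands for the GC box GGGCGG, the ETS core CCGGAA, the forkhead motif TGTTTAC and the TATA box TATAAA. The GC box occurred in 6 members (Cldn5, Flt1, Kdr, Ocln, Slc2a1 and Tjp1) and in 32.7% of all 32851 promoters. The windows of these 6 had a GC content of 59.6 to 70.4%, against a median of 52.4% over all promoters, and the share was not matched for it. Members were counted by gene and the shares by promoter. The ETS core occurred in Kdr and in 1 of the 2 windows of Ocln (12% of all), the forkhead motif in Abcb1a (3.17%) and the TATA box in Flt1 (12.4%). As GENCODE M21 places the genes, the window of Abcb1a lies far before the gene and that of Tjp1 inside it. The windows of Cldn5, the member with separate groups, of Mfsd2a, with the largest difference and none of the 4 motifs, and of Flt1, with the widest spread, are shown 5′ to 3′ with matches in capitals. They lie at chr16:18776597-18776846 on the plus strand, chr4:122961189-122961438 on the minus strand and chr5:147726012-147726261 on the minus strand. Motif presence did not separate Cldn5 from the members that were low in MA replicate 3, since Flt1 and Tjp1 share its GC box, and a match is only a run of letters.
Cldn5: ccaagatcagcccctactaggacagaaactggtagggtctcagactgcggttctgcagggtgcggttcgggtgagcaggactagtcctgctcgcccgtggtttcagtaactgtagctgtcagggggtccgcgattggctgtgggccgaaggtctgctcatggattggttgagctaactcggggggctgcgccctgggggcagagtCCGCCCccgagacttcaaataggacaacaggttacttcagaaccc
Mfsd2a: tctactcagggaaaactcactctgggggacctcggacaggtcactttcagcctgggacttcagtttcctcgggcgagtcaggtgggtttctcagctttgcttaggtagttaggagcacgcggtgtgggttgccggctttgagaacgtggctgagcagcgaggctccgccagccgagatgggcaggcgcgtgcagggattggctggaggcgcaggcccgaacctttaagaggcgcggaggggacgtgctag
Flt1: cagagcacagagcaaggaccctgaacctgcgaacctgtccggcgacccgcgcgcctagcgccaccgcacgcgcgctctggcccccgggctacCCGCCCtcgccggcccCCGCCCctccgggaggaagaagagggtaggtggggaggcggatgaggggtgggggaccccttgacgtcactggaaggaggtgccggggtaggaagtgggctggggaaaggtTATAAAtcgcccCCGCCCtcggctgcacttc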

How the data were processed

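RNA was sequenced from hippocampus in 3 Control and 3 MA libraries. Per the study's methods, the authors aligned reads with Hisat2, counted them with featureCounts and computed FPKM, while the submitters' processing notes name Bowtie 0.12.2 and builds mm8 and mm9, so the build was not settled. The deposited values, named RPKM, were on a log2 scale with a near-common distribution in all libraries, a step not described in the sources used here, and were read as log2(RPKM + 1). Depth is therefore unknown, and low levels understate fold changes.

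Genes with an RPKM of at least 0.5 in at least 3 libraries were tested with limma 3.58.1 in R 4.3.3 (lmFit, eBayes with trend, MA minus Control), Benjamini-Hochberg adjusted over all 13321 genes, after a test on simulated data. Single members were also compared by exact permutation. The members and lists were chosen with earlier results of these data known. Named from each pathway list were genes past the adjusted threshold, filled up to 3 by the smallest p, and 5 genes by likeness. Gene list entries were matched by symbol, then by identifier, and 8 of 228 found no row. Of these, Gpr124 is an older symbol of Adgra2, which was analysed, and the rest (Slc7a5, Sele and Selp among them) were not analysed here. The result of 1 list of cell type markers is not reported here. Exonic lengths and GC came from GENCODE M21, and promoters from RefSeq. Whether animals were pooled is not given in the sources used here, so p-values measure the spread between these libraries. Alternatives changed the filter, the offset, the scaling, the trend, library weights, a replicate block and the libraries used.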

Additional observations from a re-analysis of the deposited data

How the results depend on the processing

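Genes past the adjusted threshold numbered 35, against 20 with a minimum mean RPKM of 5 (fewer genes tested), 3 without the filter, 586 with sample quality weights and 27 to 35 under the remaining scalings, offset, trend and the correction for length and GC chosen after seeing the data. Sample quality weights, which gave MA replicate 3 a weight of 0.19 and the others 0.94 to 2.45, called 1 member (Mfsd2a, 0.58) instead of 0, and turned Tjp1 to 0.069. They moved the member median from 0.12 to 0.24, with 10 members positive. The cause of these shifts was not tested. Leaving out 1 library at a time gave 0 to 257 called genes, 0 to 1 called members, a member median of -0.0060 to 0.27 and 1 to 8 members with groups that did not overlap. Single differences then ran from -0.089 to 0.16 for Ocln, -0.16 to 0.10 for Tjp1, -0.084 to 0.17 for Cdh5, -0.048 to 0.21 for Slc2a1, -0.091 to 0.44 for Flt1 and -0.063 to 0.25 for Kdr. Those of Cldn5 (0.28 to 0.34), Pecam1 (0.012 to 0.32), Abcb1a (0.22 to 0.53) and Mfsd2a (0.29 to 0.62) stayed above 0.

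With replicate number as a replicate block, 15 genes and 0 members were called and the member median was 0.12. Deviations of same-numbered libraries correlated at -0.20, -0.24 and -0.34 across genes, and 0 of 6 libraries correlated best with its own number. The values thus gave no sign of pairing by number. Deviations from a mean of 3 libraries depend on each other, so this check cannot exclude a pairing.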

Other observations

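Several limits bear on these values. With 3 libraries a group, the upper ends of the 95% intervals of the members lie at 0.26 to 0.83 and the exact test cannot go below 0.1. The values share a near-common distribution as deposited, so a change in total RNA is not visible. Levels come from whole tissue, in which endothelium is a small part. All 12 choroid plexus markers, the 4 globin genes and 3 of 10 meningeal markers lay above the Control range in the libraries labelled MA, where 7.32% of all tested genes did. In addition, 1 library, MA replicate 3, moved 9 of the 10 members. The direction of every difference rests on labels that the immediate early genes put in doubt, and exchanged labels would turn each one.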
